A study of Mus musculus with 2 samples.

Results

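Antioxidant enzymes remove the superoxide and peroxides that oxygen metabolism leaves behind. The 10 genes described here encode the 6 peroxiredoxins of the mouse (Prdx1 to Prdx6), catalase (Cat), glutathione peroxidase 1 (Gpx1), and the cytosolic and mitochondrial superoxide dismutases (Sod1, Sod2). They were chosen by name, as every non-control probe of the array that carried 1 of these 10 gene names. That gave 15 probes of 55681, and 10 genes of 36315 named on the array. All 15 probes gave a signal well above background in both channels on both arrays, so all 10 genes were measured.

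Superoxide dismutases turn superoxide into hydrogen peroxide. Catalase, glutathione peroxidases and peroxiredoxins then reduce the peroxide, the last by an active cysteine that thioredoxin restores in most of them. Red cells carry oxygen on heme iron and are rich in peroxiredoxin 2, catalase and superoxide dismutase 1. Mice without Prdx2 or Prdx1 are known for hemolytic anemia.

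RNA came from fetal liver erythroid progenitors of C57BL/6 embryos at stage E14.5, taken as lineage-negative (Lin-) cells. One group was transduced with ESlncRNA, a long noncoding RNA of erythroid cells also known as lincRNA-EPS, and the other with the vector, and both were sorted as GFP positive cells. Each of 2 two-colour arrays held 1 sample of each group, with ESlncRNA labelled with Cy5 and vector with Cy3. Dyes were not swapped, so a dye effect of a probe and an effect of ESlncRNA cannot be told apart. The labels do not say whether replicates 1 and 2 are separate cultures or animals. The p-values therefore reflect only how far 2 arrays differ, for a probe itself and, with more weight, over all probes tested. That spread may be technical. Since 1 slide scanned at once held both arrays, neither slide nor scan can serve as a batch, and the number of arrays limits the precision.

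Values are log2 ratios of ESlncRNA over vector after loess normalization, as the mean of 2 arrays ± SD. Adjusted p-values are from limma with Benjamini-Hochberg adjustment over all probes tested, and the threshold was 0.05. Intensities are the normalized brightness of a probe in 1 channel. They are not compared between genes, because probes bind with different strength. Lack of overlap between vector and ESlncRNA intensities is given as a description only. The share of all genes without such overlap was not counted, and Prdx1 showed no overlap with loess though it did not pass. A gene with several probes is counted by its brightest one.

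With loess, 7 of the 10 enzymes rose with ESlncRNA, 2 fell (Prdx5 and Gpx1) and Prdx1 did not pass the test. Gpx1 also fell with processed signals, while it rose with median centring. Over the 19871 genes tested, 26.3% were called higher and 36.8% lower with loess, so calls were common on these arrays in either direction. With processed signals 6 enzymes were higher and 2 lower, beside 34.3% and 23.7% of all genes. With median centring 9 were higher and 1 lower, beside 63.0% and 18.3% of all genes. The median log2 ratio of the 10 enzymes was 0.44, with 0.42 on the array of replicate 1 and 0.44 on that of replicate 2. The median over all genes was -0.029. In these bulk samples fewer cells of a type and less RNA per cell cannot be told apart. Cell type markers moved too. The summed intensity of 11 erythroid markers went from 351000 and 280000 with vector to 587000 and 501000 with ESlncRNA, and that of 10 granulocyte markers from 1110000 and 1230000 to 40200 and 46500. Such sums weigh the brightest probes most. Without Hba-a2 the erythroid sums were 197000 and 160000 against 291000 and 243000, with Hba-a1 at 136000 and 113000 of the vector sums. Without S100a9 the granulocyte sums were 758000 and 824000 against 31000 and 35700. The part of these cell types in the ratios of the 10 enzymes was not tested.

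**Figure D1:**
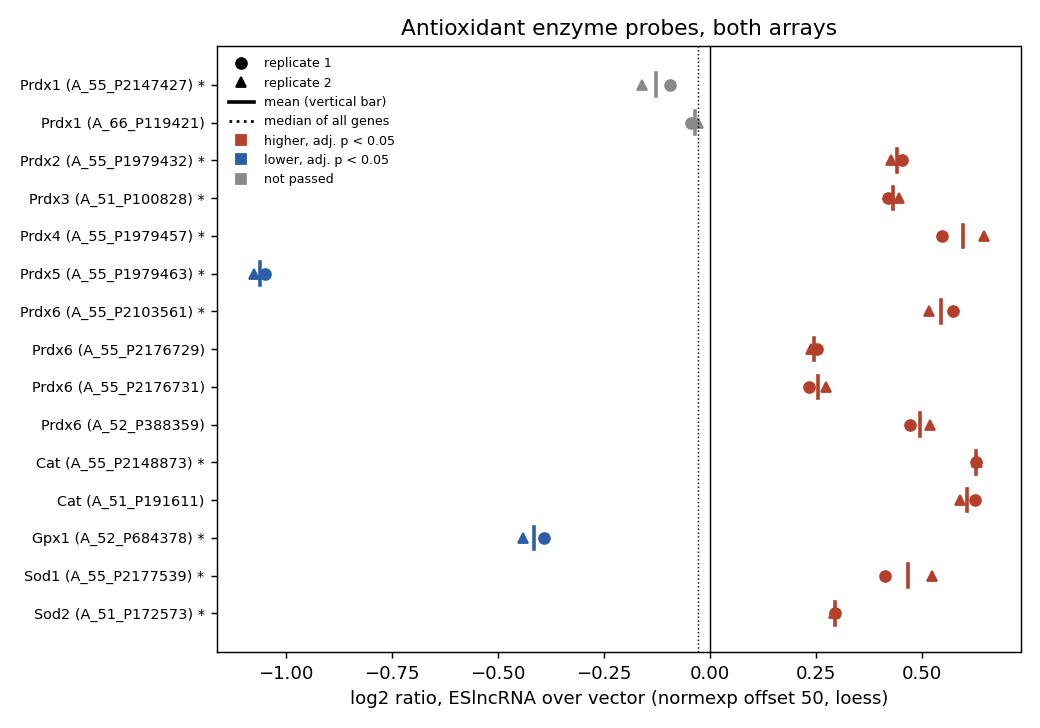
Log2 ratio of ESlncRNA over vector (x axis) for the 15 probes of the 10 genes, with 1 circle and 1 triangle for the arrays of replicates 1 and 2, a bar at their mean, and * at the brightest probe of a gene. With loess the probes of 7 genes lie right of 0 on both arrays, from 0.23 to 0.65, those of Prdx5 and Gpx1 lie left of it, and those of Prdx1 lie just left of it; Gpx1 and Prdx1 lie right of 0 with median centring.

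The superoxide dismutases, which make the peroxide that the other enzymes remove, were both higher. Sod1, the copper and zinc enzyme of the cytosol, had intensities of 75800 and 73100 in the vector channel and 101000 and 105000 in the ESlncRNA channel, for replicates 1 and 2. Both ESlncRNA values lay above both vector values. The log2 ratio was 0.47 ± 0.078 (n = 2 arrays, adjusted p = 0.00039 with limma), a 1.38-fold higher level. It was 0.41 on the first array and 0.52 on the second. With Agilent's processed signals in place of loess the ratio was 0.29 and did not pass (adjusted p = 0.0618 with limma), so Sod1 is the enzyme among the 7 whose call depended on the scaling. Its probe lies on chr16:90226509-90226568 (mm9, forward strand) and holds the letters of a polyadenylation signal, the cue for cutting the 3′ end of an mRNA, shown in capitals in the 30 bases around it.

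Sod1: ctaccctcaaaccATTAAActgtaatctga

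Sod2, the manganese enzyme of mitochondria, had vector intensities of 46300 and 51600 and ESlncRNA intensities of 56800 and 63200. Both ESlncRNA values lay above both vector values, and replicate 2 was the brighter in either channel. The log2 ratio within each array was 0.29 and 0.29 (mean 0.29 ± 0.0016, adjusted p = 0.00209 with limma), a 1.23-fold higher level. This was the smallest rise among the 7 genes with loess, and its array values did not overlap those of the next higher gene, Prdx3. The copper chaperone of Sod1, Ccs, was at -0.024 ± 0.0029 and did not pass.

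Catalase, the heme enzyme that splits hydrogen peroxide, had the highest log2 ratio of the 10 with loess. Its brighter probe, on chr2:103294487-103294546 (reverse strand), gave 2450 and 2550 in the vector channel against 3780 and 3950 in the ESlncRNA channel. The groups did not overlap. The log2 ratio was 0.63 ± 0.0016 (adjusted p = 6.11e-05 with limma), a 1.54-fold higher level. The second probe lies within chr2:103297086-103300428, a span of 3343 bases for a probe of 60, so it crosses a splice junction and reads spliced RNA. It is shown because both catalase probes, on different stretches of the transcript, gave close to the same ratio.

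Cat, junction probe: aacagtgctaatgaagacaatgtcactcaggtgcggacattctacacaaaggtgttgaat

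On the junction probe the intensities were 1020 and 943 for vector and 1560 and 1420 for ESlncRNA, again without overlap. Its log2 ratio of 0.61 ± 0.025 (adjusted p = 7.59e-05 with limma) came from 0.62 and 0.59 on the 2 arrays, just below the 0.63 and 0.63 of the first probe.

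Gpx1, the selenium enzyme that reduces peroxide with glutathione, went the other way with loess. Its intensities were 154000 and 155000 in the vector channel and 118000 and 115000 in the ESlncRNA channel. Both ESlncRNA values lay below both vector values. The log2 ratio was -0.42 ± 0.034 (adjusted p = 0.000463 with limma), 1.33-fold lower, but with median centring of the arrays it was 0.65 and thus higher. Gpx1 was brighter than 98.7% of the genes, where the choice of scaling matters most, as described below. Its single probe, shown because this direction rests on it alone, lies on chr9:108242276-108242335 (forward strand) and has 2 reading frames without a stop.

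Gpx1: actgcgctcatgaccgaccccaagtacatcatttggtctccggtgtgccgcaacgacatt

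The peroxiredoxins split, with 4 higher, 1 lower and 1 not passed. Prdx2, the cytosolic enzyme abundant in red cells, had intensities of 37100 and 35400 with vector and 50800 and 47600 with ESlncRNA, without overlap. Its log2 ratio was 0.44 ± 0.018 (adjusted p = 0.000339 with limma), 1.36-fold higher. Prdx1, its close relative in the cytosol, had 21500 and 23200 with vector against 20100 and 20700 with ESlncRNA on its brighter probe. Both ESlncRNA values lay below both vector values. The log2 ratio of -0.13 ± 0.047 did not pass (1.09-fold lower, adjusted p = 0.0613 with limma) and was 0.68 with median centring. The second Prdx1 probe, at 816 and 809 for vector and 791 and 794 for ESlncRNA, gave -0.036 ± 0.012 (adjusted p = 0.538) and 0.40 with median centring. The array values of Prdx1 and Prdx2 did not overlap.

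Prdx3 and Prdx4 work outside the cytosol. Prdx3, the mitochondrial peroxiredoxin, had intensities of 15000 and 14600 with vector and 20000 and 19900 with ESlncRNA. The groups did not overlap, and the log2 ratio was 0.43 ± 0.018 (adjusted p = 0.000369 with limma), 1.35-fold higher. Its probe was spotted 10 times on each array, which shows the noise between spots. The spots ran from 0.32 to 0.54 on the array of replicate 1 (median 0.40) and from 0.36 to 0.56 on that of replicate 2 (median 0.44), with SDs of 0.091 and 0.069. The highest spot of replicate 2 was marked as an outlier. It is part of these spot values but was left out of the Prdx3 ratio. Every Prdx3 spot was above 0, and the 2 arrays differed by less than the spread between spots of 1 array. Prdx4, the peroxiredoxin of the endoplasmic reticulum, had 3390 and 3140 with vector and 4950 and 4900 with ESlncRNA, without overlap. It was 1.51-fold higher (log2 ratio 0.60 ± 0.069, adjusted p = 0.000114 with limma), the largest rise among the peroxiredoxins with loess.

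Prdx5, which works in mitochondria, peroxisomes and the cytosol, had the lowest ratio of the 10. Its intensity was 14900 and 15200 with vector and 7190 and 7210 with ESlncRNA. The log2 ratio was -1.06 ± 0.019 (adjusted p = 5.07e-06 with limma), 2.09-fold lower. It stayed below 0 under all 3 scalings, at -0.93 with processed signals and -0.35 with median centring, and it was the lowest member under each. The probe lies on chr19:6981371-6981430 (reverse strand), where 2 reading frames have no stop.

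Prdx5: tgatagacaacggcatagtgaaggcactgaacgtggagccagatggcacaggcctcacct

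Prdx6, a peroxiredoxin that uses glutathione in place of thioredoxin, had 4 probes, and all 4 were higher. The brightest, on chr1:163171138-163171197 (reverse strand), had 56200 and 56200 with vector and 83700 and 80400 with ESlncRNA, a log2 ratio of 0.54 ± 0.040 (1.46-fold higher, adjusted p = 0.000137 with limma). The dimmest, on chr1:163170713-163170772, had 158 and 141 against 219 and 202 and gave 0.49 ± 0.033 (adjusted p = 0.000206). Neither probe's groups overlapped.

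The other Prdx6 probes, on chr1:163171791-163171850 and chr1:163173715-163173774, gave smaller rises. The first of them had 37600 and 35900 against 44800 and 42400 (0.25 ± 0.0099, adjusted p = 0.0046 with limma). The second had 28000 and 31500 against 32900 and 38000, also 0.25 (± 0.028, adjusted p = 0.00418 with limma). On every probe the ESlncRNA values lay above the vector values, and the direction was the same on all 4 probes under loess, processed signals and median centring. The sizes and their order depended on the scaling and on the background correction, and processed signals differ from loess in both. With loess the brightest and the dimmest probe gave 0.54 and 0.49 and the others both 0.25. Without an offset in the background correction, loess gave 0.53 for the brightest and 0.70 for the dimmest. With processed signals the dimmest gave 1.12 and the brightest 0.59. With median centring the dimmest had the lowest ratio of the 4 (0.72). The probe of the highest intensity and 1 of the others are shown. The brightest holds polyadenylation signal letters, in capitals, and the other lies upstream of it and has 1 reading frame without a stop.

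Prdx6, brightest probe, 30 bases: tgaggttcaacaAATAAAatcctgatcaga
Prdx6, upstream probe: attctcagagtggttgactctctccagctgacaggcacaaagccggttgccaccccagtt

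The array's annotation lists a further transcript for each of these 2 probes, so RNA of another transcript may add to their signal. Without a replicate block the upstream probe did not pass (adjusted p = 0.079 with limma). The motifs AATAAA and ATTAAA were searched on the probe strand only. They occur in 4 of the 15 probes (Prdx2, Prdx4, Prdx6 and Sod1) and in 13.7% of the 55681 array probes. Prdx2 and Prdx4, both higher, thus each rest on 1 probe with these letters.

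Prdx2: ctataggaaaccAATAAAgtattagggaca
Prdx4: tttggaccttctcAATAAAggtcattgtgt

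**Figure D2:**
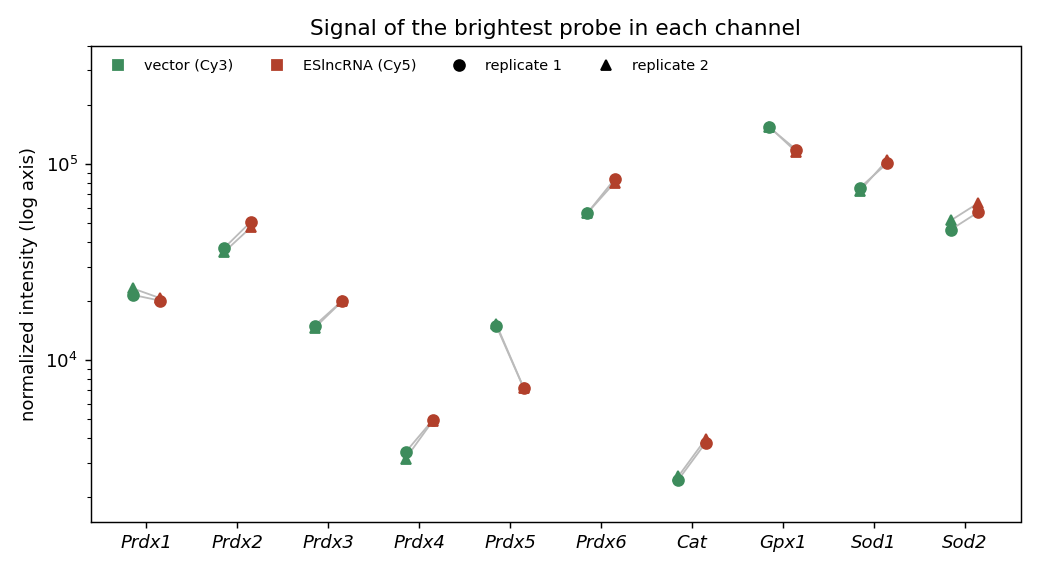
Normalized intensity (log axis) of the brightest probe of each gene in the vector (Cy3) and ESlncRNA (Cy5) channels, with circles for replicate 1 and triangles for replicate 2 joined by array. The arrays nearly coincide for each gene, and Prdx5 shows the widest step, from 14900 and 15200 to 7190 and 7210; heights are not comparable between genes, and the downward steps of Gpx1 and Prdx1 turn upward with median centring.

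In order of log2 ratio with loess, Cat, Prdx4, Prdx6, Sod1 and Prdx2 each overlapped the next gene across arrays, the last of them Prdx3. Below Prdx3 no gene overlapped the next, and Sod2, Prdx1, Gpx1 and Prdx5 stood apart from each other. The steps were 0.14 from Prdx3 to Sod2, 0.42 to Prdx1, 0.29 to Gpx1 and 0.65 to Prdx5. This order holds for loess and the brightest probe of each gene only. The Prdx6 probes at 0.25 lay below Sod2 at 0.29. With median centring Sod2 (1.23) lay above Prdx3 (1.21), Cat (1.20) and Prdx4 (1.19). With processed signals Sod1 (0.29) lay below Sod2 (0.36). The location in the cell did not sort the genes. The mitochondrial enzymes Sod2 and Prdx3 were higher, and Prdx5, which is partly mitochondrial, was lower. Among enzymes of the cytosol, Sod1 and Prdx2 were higher while Prdx1 did not pass.

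Scaling matters for these genes because they are bright. All genes measured were divided by brightness into 10 classes of equal size, and 7 of the 10 enzymes lay in the brightest class. The raw Cy5 signal exceeded the Cy3 signal over most of the array, with a median ratio of 1.75 and 2.02 among the kept probes of replicates 1 and 2. After median centring the ratio still rose with brightness. The median log2 ratio was -0.075 in the dimmest class and 0.92 in the brightest class, against -0.11 and 0.023 after loess. The median of all genes was 0.34 with median centring and 0.11 with processed signals, a shift from -0.029 with loess.

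Set against that shifted median of all genes, Gpx1 was still 0.32 and Prdx1 0.34 higher with median centring, and 0.76 and 0.24 lower with processed signals. Set against the median of the genes in their own brightness class, each of the 10 genes lay on the same side under all 3 scalings, 7 above and Gpx1, Prdx1 and Prdx5 below. Gpx1 lay 0.44, 0.65 and 0.27 below that median with loess, processed signals and median centring. Prdx1 lay 0.15, 0.13 and 0.24 below it. Prdx5 lay 1.03, 0.99 and 1.01 below it. Sod1 lay 0.44, 0.29 and 0.55 above it, and catalase 0.65, 0.72 and 0.63 above it. Loess removes the trend of the ratio with brightness, and subtracting the class median removes most of it too. Likeness of the scalings after this step is thus largely built in. It does not settle the direction of Gpx1 and Prdx1.

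**Figure D3:**
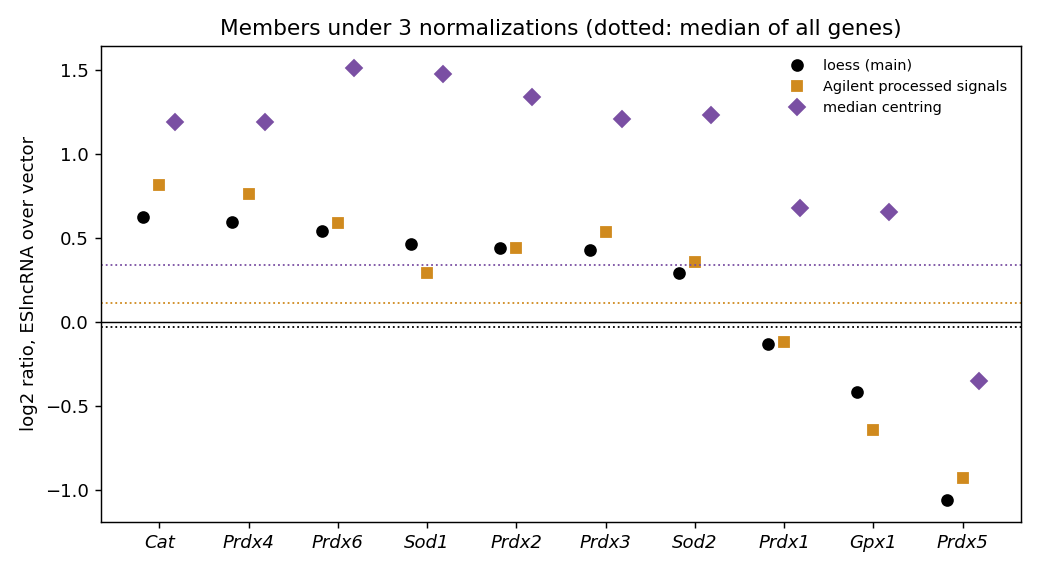
Log2 ratio of ESlncRNA over vector (y axis) for the 10 genes under loess, Agilent's processed signals and median centring, with a dotted line at the median of all genes under each. Gpx1 and Prdx1 lie below 0 with loess and processed signals and above it with median centring (0.65 and 0.68), while Prdx5 is the lowest gene under all 3.

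The promoters were searched for the antioxidant response element, the site through which the factor Nfe2l2 acts with small Maf proteins. Its core was written as TGACNNNGC and sought on both strands in RefSeq windows from 250 bases before to 50 bases after each gene's start (GRCm38.p6). Windows were listed for 9 of the 10 genes, all but Prdx6. The core occurred in 2 of them, Prdx1 and Sod1, and in 12.4% of the 32851 windows of 300 bases. Both matches were on the reverse strand, and the capitals mark them as read on the forward strand. The Prdx1 match begins 133 bases before the start, on chr4:116685450-116685490, and also holds the letters TGACTCA of an AP-1 site. The Sod1 match begins 56 bases before the start, on chr16:90220690-90220730. They are shown to let the sites be compared, and a match is only a description of letters.

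Prdx1: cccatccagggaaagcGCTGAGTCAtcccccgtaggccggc
Sod1: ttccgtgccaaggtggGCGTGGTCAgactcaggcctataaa

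With loess Sod1 was higher and Prdx1 did not pass, with processed signals neither passed (0.29 and -0.12), and with median centring both were higher (1.48 and 0.68). The genes of the other pathways that feed these enzymes were taken as 6 lists with 84 genes. Of them 76 were measured, and their median was -0.16 with loess. In that setting 25 were higher, 40 lower and 11 not passed, beside 26.3% higher and 36.8% lower of all genes. With median centring 44 were higher and 21 lower, where 63.0% of all genes were called higher and 18.3% lower. With processed signals 26 were higher and 29 lower, beside 34.3% and 23.7% of all genes. These shares of all genes stand beside the counts of each list below as well.

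The thioredoxin system returns electrons to peroxiredoxins. Of its 13 genes 6 were higher, 5 lower and 2 not passed with loess (median 0.019), and 10 were higher, 2 lower and 1 not passed with median centring. The mitochondrial thioredoxin reductase Txnrd2 was 0.75 ± 0.044 (intensities of 14300 and 12600 with vector against 23500 and 21700 with ESlncRNA), Txnrd3 0.52 ± 0.012 and the thioredoxin-like Txnl1 0.37 ± 0.029. The thioredoxin partner of the mitochondrion, Txn2, and sulfiredoxin, Srxn1, which repairs over-oxidized peroxiredoxins, were both at 0.14. The cytosolic Txn1 and Txnrd1 did not pass with loess, at 0.019 and -0.092, and were at 0.86 and 0.68 with median centring. Txnip, which binds and inhibits thioredoxin, was the lowest at -1.29 ± 0.060 (2530 and 2730 against 1010 and 1150). Nxn, a relative of thioredoxin, was lower at -0.78 ± 0.0025 and did not pass with median centring. Sesn3, a stress-induced sestrin, was lower at -0.78 ± 0.068 with loess and at -1.59 with processed signals, and its probe was not well above background in every channel.

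The glutathione system serves Gpx1. Of its 14 measured genes of 18, 6 were higher, 7 lower and 1 not passed with loess (9, 3 and 2 with median centring). The enzymes that make glutathione, Gclc, Gclm and Gss, were higher, at 0.34, 0.20 and 0.41. Chac1, which degrades glutathione, was at 0.85 ± 0.10, and Glrx5, a mitochondrial glutaredoxin of iron-sulfur cluster assembly, at 0.59 ± 0.063. Glutathione reductase, Gsr, which regenerates glutathione, was at -0.46 ± 0.059 with loess and at 0.36 with median centring, the same turn of sign as Gpx1. The cytosolic glutaredoxin Glrx was lower at -1.59 ± 0.038. Among the other glutathione peroxidases, the secreted Gpx3 fell by 1.87 (± 0.078) and Gpx8, whose ESlncRNA channel was not well above background, was at least 1.76-fold lower. Gpx4, the enzyme for lipid peroxides, was at -0.16 ± 0.029 with loess, 0.75 with median centring. Gpx2 was at -0.29 ± 0.042 with loess, and at -0.0037 and 0.057, not passed, with processed signals and median centring.

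Glutathione transferases, which couple glutathione to other molecules, were measured for 15 of 16 genes, with 4 higher, 10 lower and 1 not passed with loess (median -0.41), and 6 higher and 6 lower with median centring. Gsta4 was 2.47-fold higher (1.30 ± 0.035), Gstp1 at 0.66 ± 0.073 and Gstm5 at 0.47 ± 0.082. The 3 lowest were the microsomal Mgst1 at -3.92 ± 0.055, Gstm1 at -3.60 ± 0.042 and Mgst2 at -3.34 ± 0.049, all 3 also lower with the other scalings. The array's annotation places the Gstm1 probe on chr5:117082490-117082549, but those of Gstm2 and Gstm5 on chr3. RNA of another locus may thus add to the Gstm1 signal. NADPH is the electron source of both systems. Of 8 genes that supply it, 2 were higher, Me1 (1.20 ± 0.11) and Nadk2 (0.35 ± 0.0097), 5 were lower with loess and 1 did not pass. The isocitrate dehydrogenases Idh2 and Idh1 were at -1.38 ± 0.055 and -0.78 ± 0.039 and the transhydrogenase Nnt at -0.87 ± 0.11. G6pdx and Pgd of the pentose phosphate pathway were at -0.17 and -0.39 with loess, and at 0.69 and 0.35 with median centring.

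Of 16 measured genes of other oxidant defence, 4 were higher, 8 lower and 4 not passed with loess (9, 6 and 1 with median centring). Blvrb, which reduces biliverdin and is abundant in red cells, was at 0.73 ± 0.041, Selenbp1 at 0.67 ± 0.028 and the quinone reductase Nqo1 at 0.43 ± 0.16. The methionine sulfoxide reductases Msra and Msrb1 were at -1.79 ± 0.031 and -1.32 ± 0.098, and the heme oxygenase Hmox1 at -1.38 ± 0.069. Of 10 measured regulators of 12, 3 were higher, 5 lower and 2 not passed with loess, and 5 were higher, 1 lower and 4 not passed with median centring. Nfe2l2 itself was at 0.16 ± 0.053 (adjusted p = 0.0333 with limma), and it did not pass with processed signals. Of its small Maf partners, Maff and Mafk were at 0.47 ± 0.039 and 0.24 ± 0.015, while Mafg was lower at -0.33 ± 0.0061 with loess and at 0.39 with median centring. Bach1, the repressor that competes for the same sites, was lower at -0.74 ± 0.12 (1390 and 1270 against 780 and 809, without overlap). Sqstm1 and Foxo1 were lower at -0.43 and -0.35 with loess, and at 0.039 and 0.040, not passed, with median centring.

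**Figure D4:**
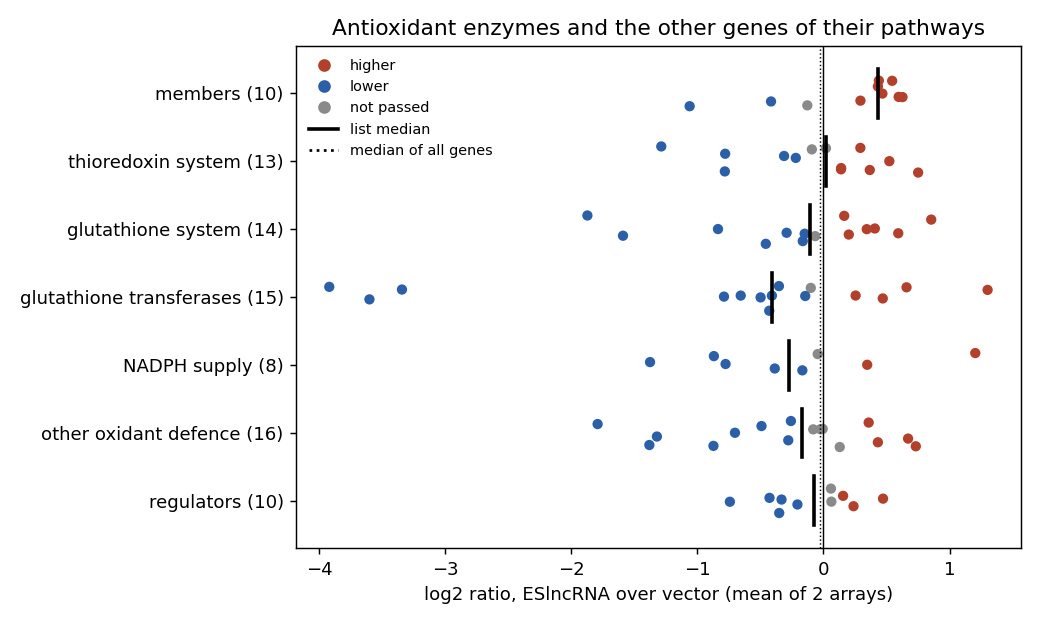
Log2 ratio of ESlncRNA over vector (mean of 2 arrays, loess) for the 10 enzymes and for the measured genes of each pathway list, with 1 point per gene coloured by its call, a bar at the list median and a dotted line at the median of all genes. The 10 enzymes have their median at 0.44 and the lists theirs between -0.41 and 0.019. Many genes near 0, and Gpx1 and Prdx1 among the enzymes, change sign with median centring.

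By list, the markers of the cells in the sort or beside them moved as follows. The erythroid list had 8 of 11 measured genes higher and 3 not passed. Among them Epb42, a membrane skeleton protein, was at 1.21 and the globin gene Hba-a2 at 1.02, while the 3 that did not pass differed between arrays. Slc4a1 was at -0.45 and 1.48, Alas2 at -0.017 and 0.77, and Hbb-bh1 at -0.27 and 0.43, and all 3 were brighter in replicate 1 in both channels (vector intensities of 2220, 1770 and 1260 against 322, 584 and 133). All 10 granulocyte markers measured of 11 were lower (median -4.49, with S100a8 at -5.43 and S100a9 at -5.25). Macrophage markers were lower in 9 of 9 with loess and in 8 of 9 with processed signals. Their median was -0.99 with loess, or -0.73 with dim genes at their bound, with Csf1r at -3.31 and Adgre1 at least 4.48-fold lower. Their sums went from 10600 and 10300 to 1540 and 1550, and from 1680 and 1730 to 623 and 696 without Csf1r. Mast cell, basophil and eosinophil markers were lower in 6 of 6 with loess (Cpa3 at -4.38, Mcpt8 at -3.06) and in 5 of 6 with processed signals. Their sums were 16600 and 15900 against 1670 and 1480, and the ESlncRNA channel of 2 genes was not well above background. Megakaryocyte and platelet markers were lower in 7 of 7 with loess (Itgb3 at -2.42; 72400 and 67300 against 19700 and 18500). Hepatocyte markers were lower in 7 of 9 with loess (Trf at -2.91, Ahsg at -1.64), with the ESlncRNA channel of 2 not well above background. Their sums were 9080 and 8240 against 3000 and 2850, and 4710 and 4720 against 2440 and 2370 without Trf. Endothelial and stromal markers were lower in 7 of 8 with loess (Sparc at -3.07, Col4a1 at least 5.76-fold lower). Their sums were 14600 and 14500 against 5190 and 5390, and 5700 and 6080 against 4120 and 4410 without Sparc. In the last list Kdr did not pass (0.080), and the ESlncRNA channel of 4 genes was not well above background. The part of these cell types in the ratios of the pathway genes was not tested either.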

How the data were processed

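Per the file headers, Feature Extraction 10.1.1.1 quantified the scans. The deposited values used were intensities (each spot's mean signal and median local background in both channels). The processed intensities, corrected for background and dye by that software per the file headers, were an alternative. The deposited log10 ratio of Cy5 over Cy3 served to check direction (r = 0.986 and 0.992 with the ratio of processed intensities). The authors' deposited log2 values, made with limma per the submitters' processing notes, correlated at r = 0.99996 on both arrays with Cy5 over Cy3 on the log2 scale after loess without background subtraction (medians -0.02 and -0.01), which fixed their scale and direction.

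Background correction was by normexp (offset 50), then loess within arrays with control and outlier-marked spots at weight 0, and spots of a probe were averaged (R 4.3.3, limma 3.58.1). A probe was kept if 1 or both channels were well above background on each array (26793 of 55681, of which 26791 could be tested). They stood for 19871 genes, each by its brightest probe. The limma model had an intercept only (1 residual degree of freedom, 5.27 prior), with Benjamini-Hochberg adjustment over all probes and a threshold of 0.05. Intensities by channel were taken after loess and Aquantile. A fold written "at least" divides the bright channel by the dim signal or, if larger, by the weakest signal called well above background, and is open to dye bias.

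Median spot signals were 35.9 and 39.5 for vector and 67.8 and 76.3 for ESlncRNA, and 0 spots were saturated. The share of spots well above background was 52.1% and 49.1% for vector and 45.6% and 44.4% for ESlncRNA. Accessions named 26413 probes through the RefSeq table of GRCm38.p6, current symbols 3859 and older symbols 735. The rest kept the file's name. Probe coordinates are those of the array files (mm9), and exon or UTR annotation of that build was not used here. Promoter sequences are from RefSeq (GRCm38.p6).

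The members and lists were chosen with earlier results of these data known. Named were all member probes, up to 3 higher and 3 lower called genes of largest log2 ratio per pathway list with 1 sign on both arrays, and the 2 largest of each marker list, of which 1 gene is not reported here. Other genes named were chosen after their values were seen. Alternatives were other background corrections, scalings, filters on dim probes, probe choices, the authors' values and a fit without the array as block. Marker sums without a list's brightest gene were added after seeing the data. The fit was tested on simulated data in which few probes changed, up and down alike and at any brightness. Calls were far more common on these arrays, so that test does not settle which scaling suits them.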

Additional observations from a re-analysis of the deposited data

How the results depend on the processing

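Of 120 alternative values with a test for the 15 probes of the antioxidant enzymes, 114 kept direction and side of the threshold. Part of this count was fixed in advance. The filters on dim probes and the fit without a block reuse the same log2 ratio, so only the adjusted p-value could change. The authors' values nearly repeat loess without background subtraction (r = 0.99996). With 1 array left out, values with no test, 30 of 30 kept their sign. Median centring turned Gpx1 to 0.65 and the Prdx1 probes to 0.68 and 0.40, and left 1 enzyme lower; among the pathway genes it gave 44 higher and 21 lower. It was also the setting in which the ratio rose with brightness. With processed signals Sod1 (0.29, adjusted p = 0.0618 with limma) did not pass and the dimmer Prdx1 probe went to 0.15. With no replicate block, the 4 channels as separate samples, 1 Prdx6 probe did not pass (adjusted p = 0.079 with limma); the block changed no other call of the enzymes. Over all genes the calls were 5224 higher and 7306 lower, 12511 and 3634 with median centring, 6818 and 4701 with processed signals, 3543 and 6296 with the authors' values, and 3446 and 5739 without the block. The share of calls that were higher was 41.7%, 77.5% with median centring and 59.2% with processed signals. Under each of the other settings run, 7 enzymes were higher and 2 lower. The dimmest enzyme probe, of Prdx6, moved with the background correction, from 0.49 to 0.70 with offset 0 and to 1.12 with processed signals.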

Other observations

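Gpx1 is a selenoprotein, and a list of 24 selenoprotein genes was added after the values were seen, as a description only. Of the 22 measured, 5 were higher, 13 lower and 4 not passed with loess, with a median of -0.16. Of all genes 26.3% were called higher and 36.8% lower. With median centring 13 were higher, 5 lower and 4 not passed, beside 63.0% higher and 18.3% lower of all genes. The higher ones were the thioredoxin reductases Txnrd2 (0.75) and Txnrd3 (0.52), Selenoo (0.41), Selenot (0.20) and Selenoi (0.18). Lower under loess, processed signals and median centring alike were the plasma selenium carrier Selenop (-3.65 with loess), Selenom (-2.25), Gpx3 (-1.87), Msrb1 (-1.32) and the deiodinase Dio2, which was at least 3.72-fold lower. Gpx1, Gpx4, Gpx2, Selenof, Selenoh, Selenok and Selenos were lower with loess and above 0 with median centring.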
